A study of Mus musculus with 7 samples.

Results

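The genes described here are 10 chemokine ligands measured in mouse pancreatic islets: Cxcl13, Ccl19 and Ccl21a, which are made mainly in lymphoid tissue, and Cxcl1, Cxcl2, Cxcl9, Cxcl10, Cxcl16, Ccl2 and Ccl5, which are counted among the inflammatory chemokines. They are 10 of 21899 genes in the expression files, all 10 were found, and the set was chosen with the counts of these same libraries known, Cxcl13 and Ccl19 in the first place. Their values are therefore given as a description, with no test. The study asked whether androgen excess in a pregnant mouse leaves traces in the islets of her grandsons. F0 dams were injected subcutaneously late in pregnancy with dihydrotestosterone (androgen exposure, AE) or with its vehicle, benzyl benzoate and corn oil. Their F1 sons were mated with unrelated wild-type females, and islet RNA was sequenced from the F2 males, which had themselves received neither agent. Both groups were of the C57BL/6J strain. Islets were freed with collagenase, enriched on a density gradient, picked by hand and kept in culture medium. The age of the F2 mice at RNA sequencing, and whether a library pooled several mice, are not given in the sources used here. Of 3 control-F2 and 4 AE-F2 samples, 1 library of each group was analysed here (control-F2 replicate 1 and AE-F2 replicate 4), and the other 5 samples were not analysed here.

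Chemokines are small secreted proteins that guide leukocytes through G protein-coupled receptors. CXCL13 draws B cells bearing CXCR5 into lymphoid follicles, and CCL19 and CCL21 draw T cells and mature dendritic cells bearing CCR7 into the zones around them. The lymphoid ligands are made by stromal cells under lymphotoxin signals, whereas inflammatory ligands are induced by cytokines in many cell types, islet beta cells and resident macrophages among them, and recruit neutrophils, monocytes or effector T cells.

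The files hold estimated read counts per gene, 16285876 in all for control-F2 and 21278503 for AE-F2. Levels are given as CPM, the count divided by the library total and multiplied by 1000000, and a ratio is the AE-F2 count over the control-F2 count after scaling both libraries with TMM factors. Intervals are 95% intervals for counting error only, since PCR copies are not independent molecules and no second library of either group was analysed. No ratio has a replicate check, and a difference between these libraries was not tested as a difference between the groups. In bulk RNA, fewer cells of a type and less RNA per cell cannot be told apart. Insulin, glucagon and somatostatin transcripts, which define islets, were abundant in both libraries, with Ins1 at 48775 CPM and 50964 CPM, Gcg at 16047 CPM and 21979 CPM and Sst at 2890 CPM and 2868 CPM (control-F2 first, as in all pairs of values given here).

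The lymphoid and the inflammatory ligands stood differently in the 2 libraries. The 3 lymphoid ligands held 11 counts (0.675 CPM) in control-F2 against 198 counts (9.31 CPM) in AE-F2 islets, a ratio of 13.8 (7.55 to 28.1). The 7 inflammatory ligands summed to 118 counts (7.25 CPM) and 224 counts (10.5 CPM), a ratio of 1.46 (1.16 to 1.83). Cxcl16 held most of the inflammatory counts of the control-F2 library, and without it the other inflammatory ligands went from 39 to 114 counts, a ratio of 2.24 (1.55 to 3.31). All 10 genes were of low abundance: 8 of them had at most 10 counts in control-F2 islets, and 3 of them had at most 10 in AE-F2 islets.

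**Figure D1:**
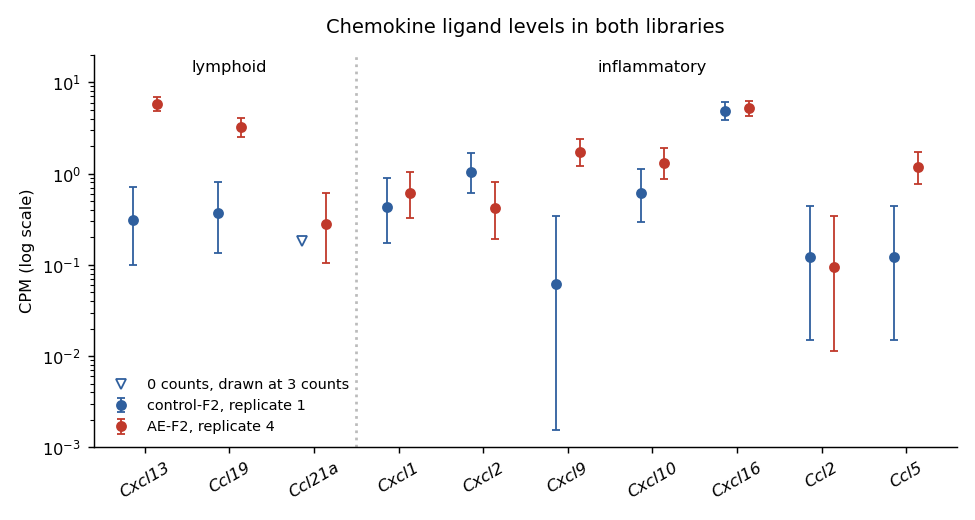
Levels of the 10 ligands in CPM on a log scale, with 1 point per gene for control-F2 and 1 for AE-F2 islets and exact Poisson 95% intervals for counting error as bars. The intervals of Cxcl13 (0.307 and 5.78 CPM), Ccl19, Cxcl9 and Ccl5 lie apart between the libraries, those of Cxcl16 (4.85 and 5.17 CPM) overlap almost wholly, and Ccl21a, with 0 counts in control-F2, is drawn there as an open triangle at 3 counts.

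Among the lymphoid ligands, Cxcl13 (ENSMUSG00000023078), the B-cell attractant of follicles, had 5 counts (0.307 CPM) in control-F2 and 123 counts (5.78 CPM) in AE-F2 islets. The ratio was 18.9, with an interval from 7.87 to 59.1. Cxcl13 was thus near the floor of the control-F2 library, where 3 counts correspond to 0.184 CPM, yet was the most abundant of the 10 ligands in the AE-F2 library. Ccl19 (ENSMUSG00000071005), a ligand of CCR7 that positions T cells and dendritic cells, had 6 counts (0.368 CPM) and 69 counts (3.24 CPM), and its ratio was 8.82 (3.85 to 24.9). Ccl21a, another CCR7 ligand, had 0 counts in control-F2 against 6 counts (0.282 CPM) in AE-F2 islets, which is at least 1.53-fold higher when the control-F2 library is set to a floor of 3 counts. The near-identical copies Ccl21b, Gm13304 and Gm21541 were listed at 0 in both libraries, so the way reads were shared between the copies makes the Ccl21a count uncertain; Ccl21c was not analysed here. Ccl19 and Ccl21a together went from 6 to 75 counts, a ratio of 9.58 (4.20 to 26.9).

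The start regions of Cxcl13 and Ccl19 are shown because these genes carry the difference in the lymphoid sum. Each window runs from 250 bases before to 50 bases after the RefSeq transcription start in build GRCm38.p6, written 5′ to 3′ on the strand of the gene, with matches to the searched motifs in capitals. Cxcl13 lies at chr5:95956689-95956988 on the plus strand, and its capitals mark a match to the TATA box letters at positions -46 to -41 from the start. Ccl19 lies at chr4:42756316-42756615 on the minus strand, and its capitals mark a match to the interferon-stimulated response element (ISRE) at -208 to -199.
Cxcl13: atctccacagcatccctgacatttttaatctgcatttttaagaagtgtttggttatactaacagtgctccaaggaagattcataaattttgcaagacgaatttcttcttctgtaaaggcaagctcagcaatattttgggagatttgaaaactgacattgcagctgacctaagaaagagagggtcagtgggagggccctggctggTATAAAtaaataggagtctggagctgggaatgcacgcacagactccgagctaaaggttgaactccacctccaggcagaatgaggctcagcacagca
Ccl19: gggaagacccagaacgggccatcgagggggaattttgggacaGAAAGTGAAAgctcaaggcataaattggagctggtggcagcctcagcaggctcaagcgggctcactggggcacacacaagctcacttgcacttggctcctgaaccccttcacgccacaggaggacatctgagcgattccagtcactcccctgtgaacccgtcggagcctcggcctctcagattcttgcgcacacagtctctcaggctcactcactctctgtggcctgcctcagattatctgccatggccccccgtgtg

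Of the inflammatory ligands, Cxcl9 and Cxcl10, attractants of effector T cells through CXCR3 and classical interferon gamma targets, were both higher in the AE-F2 library, by different amounts. Cxcl9 had 1 count (0.0614 CPM) in control-F2 and 37 counts (1.74 CPM) in AE-F2 islets, and the ratio of 28.4 had an interval from 4.78 to 1150 because it rests on a single control-F2 count. Cxcl10 had 10 counts (0.614 CPM) and 28 counts (1.32 CPM), a ratio of 2.15 (1.01 to 4.95) whose lower limit lies near 1. Summed, the CXCR3 ligands went from 11 to 65 counts, a ratio of 4.53 (2.37 to 9.52). Ccl5, which is released by activated T cells, had 2 counts (0.123 CPM) and 25 counts (1.17 CPM), a ratio of 9.58 (2.39 to 83.5). Its interval lies above 1 but spans a wide range of sizes, as the control-F2 value is at or below the floor of 3 counts.

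Cxcl1 and Cxcl2, neutrophil attractants that bind CXCR2 and are immediate targets of NF-kB, had ratios on different sides of 1. Cxcl1 had 7 counts (0.430 CPM) and 13 counts (0.611 CPM), a ratio of 1.42 with an interval from 0.528 to 4.21 that includes 1. Cxcl2 had 17 counts (1.04 CPM) and 9 counts (0.423 CPM), and was the single ligand of the 10 with an interval below 1: its level in AE-F2 was 2.46-fold (1.04 to 6.27) lower. Together they gave 24 and 22 counts, a ratio of 0.703 (0.376 to 1.31). Cxcl16, a membrane-bound ligand of CXCR6 that also acts as a scavenger receptor, had 79 counts (4.85 CPM) and 110 counts (5.17 CPM). Its ratio of 1.07 (0.792 to 1.44) is the best determined of the 10, and the interval leaves room for at most a 1.44-fold higher level. Ccl2, the monocyte attractant that binds CCR2, had 2 counts in each library and is given no ratio.

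The start regions of Cxcl9, Cxcl10 and Cxcl2 are shown for contrast, because Cxcl9 and Cxcl10 are partners for CXCR3 that differed in size and Cxcl2 stood on the opposite side. Cxcl9 lies at chr5:92328030-92328329 on the minus strand, and its capitals mark the letters TATAAA at -195 to -190. These letters lie much further from the start than the same letters in Cxcl13, at -46 to -41. Cxcl10 lies at chr5:92348840-92349139 on the minus strand, with an ISRE match at -213 to -204 and NF-kB matches at -159 to -150 and -104 to -95 in capitals. Cxcl2 lies at chr5:90903649-90903948 on the plus strand, and its capitals mark NF-kB matches at -97 to -88 and, on the opposite strand and overlapping it, -96 to -87, and a further match at -78 to -69.
Cxcl9: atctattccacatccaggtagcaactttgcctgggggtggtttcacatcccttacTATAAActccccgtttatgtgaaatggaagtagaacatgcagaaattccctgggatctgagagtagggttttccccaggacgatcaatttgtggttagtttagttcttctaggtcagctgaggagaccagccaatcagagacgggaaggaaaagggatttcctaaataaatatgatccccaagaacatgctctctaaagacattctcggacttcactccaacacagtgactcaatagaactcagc
Cxcl10: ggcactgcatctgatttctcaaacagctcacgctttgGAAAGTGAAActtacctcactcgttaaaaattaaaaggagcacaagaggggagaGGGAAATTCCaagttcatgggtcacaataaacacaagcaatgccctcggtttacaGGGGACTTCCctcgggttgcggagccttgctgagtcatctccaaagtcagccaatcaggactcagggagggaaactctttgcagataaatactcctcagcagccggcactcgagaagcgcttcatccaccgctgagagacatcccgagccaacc
Cxcl2: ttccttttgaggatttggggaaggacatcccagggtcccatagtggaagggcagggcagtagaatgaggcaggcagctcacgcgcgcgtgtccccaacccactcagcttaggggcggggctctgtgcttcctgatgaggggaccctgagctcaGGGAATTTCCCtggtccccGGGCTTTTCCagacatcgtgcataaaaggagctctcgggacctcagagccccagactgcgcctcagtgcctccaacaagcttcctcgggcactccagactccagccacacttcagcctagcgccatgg

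Motifs were searched on both strands of the windows of 7 of the 10 ligands (Cxcl13, Ccl19, Ccl21a, Cxcl1, Cxcl2, Cxcl9 and Cxcl10). Cxcl16, Ccl2 and Ccl5 were not searched. The NF-kB motif (GGG, any 3 bases, TTCC) was found in Cxcl1, Cxcl2 and Cxcl10, against 5.56% of 32851 windows of the same length over all genes. The ISRE motif (GAAA, any 2 bases, GAAA) was found in Ccl19 and Cxcl10, against 3.44% of all windows. The TATA box letters TATAAA were found in Cxcl13 and Cxcl9, against 13.6%, and the gamma-activated site (TTC, any 3 bases, GAA), held by 8.3% of all windows, in 0 of the 7. A match is a run of letters, not a bound site, and a missing match says only that these letters are not in the window. Of the 3 genes with NF-kB letters, Cxcl10 was higher, Cxcl2 was lower and Cxcl1 had an interval that includes 1. Both genes with ISRE letters and both with the letters TATAAA were higher. Because the ligands were chosen on this contrast, these directions are a description, and a link between motif and level was not tested. Several ligands are close neighbours, with starts 17626 bases apart for Ccl19 and Ccl21a, 20810 for Cxcl9 and Cxcl10, and 12654 for Cxcl1 and Cxcl2. Within these neighbours Cxcl9 and Cxcl10 lay on the same side, as did Ccl19 and Ccl21a, and Cxcl1 and Cxcl2 did not.

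For the comparison with all genes, a gene was counted as higher or lower when its log2 ratio, with 0.5 counts added to each scaled count, passed a 2-fold difference and its mean was at least 10 counts. Of 13627 such genes, 3.18% were higher and 0.653% lower in the AE-F2 library. Of the 10 ligands, 8 had a mean of at least 10 counts, and Ccl21a and Ccl2 did not. Of the 8, 5 were higher (Cxcl13, Ccl19, Cxcl9, Cxcl10 and Ccl5), Cxcl2 was lower, and Cxcl1 and Cxcl16 were neither. This count cannot be read as a result about the ligands, because they were chosen on this contrast. In addition, 5 of the 8 had under 10 counts in control-F2 and 1 had under 10 in AE-F2 islets, so that they entered through the library in which they were high. Low counts also scatter more: in the 3087 genes with a mean from 10 to under 100 counts, where all 8 lie, 13.1% were higher and 2.27% lower, and the median log2 ratio was 0.16, against -0.0009 over all genes tested. On the log2 scale the ligands stood at 4.33 for Cxcl9, 4.12 for Cxcl13, 3.05 for Ccl19, 3.01 for Ccl5, 1.07 for Cxcl10, 0.48 for Cxcl1, 0.09 for Cxcl16 and -1.25 for Cxcl2. Cxcl10 is just inside the 2-fold limit, and it falls outside with a pseudocount of 5 counts (0.85) or after thinning the AE-F2 library to the control-F2 total (0.97). Cxcl2 also falls outside with a pseudocount of 5 counts (-0.93).

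**Figure D2:**
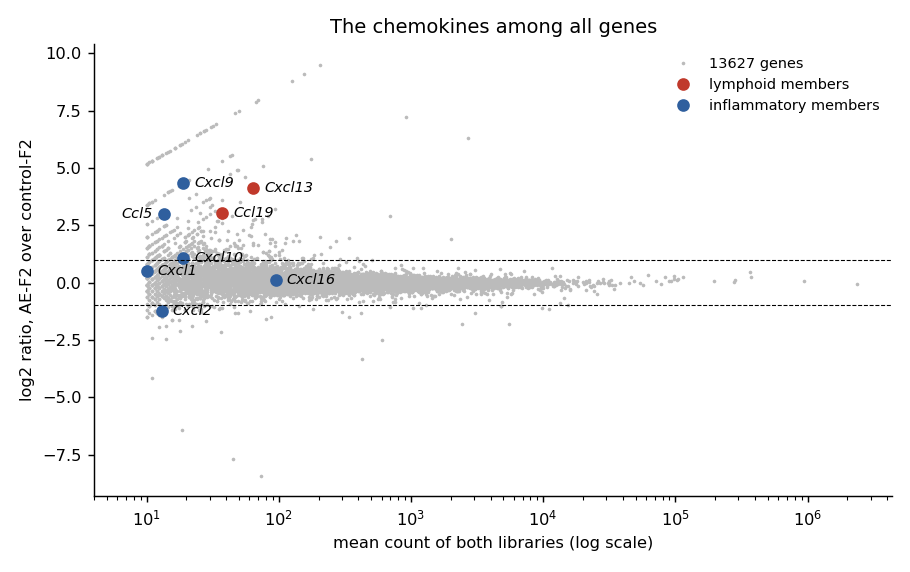
Log2 ratio of the AE-F2 to the control-F2 library, with 0.5 counts added, against the mean count of the 2 libraries on a log scale. Each grey point is a gene with a mean of at least 10 counts, coloured points are the 8 ligands that reached this mean, and dashed lines mark 2-fold. The scatter widens to the left, where the ligands lie, and Cxcl9 (4.33) and Cxcl13 (4.12) stand highest among them.

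The order of the ligands within each library was read per kilobase of exon, since longer transcripts collect more reads. In the control-F2 library Cxcl16 led with 1.61 CPM per kb (1.27 to 2.001), followed by Cxcl2 with 0.505 and Ccl19 with 0.425. Only the step from Cxcl16 to Cxcl2 was larger than the counting intervals, and each further neighbour in that order overlapped the next. In the AE-F2 library Cxcl13 led with 5.03 CPM per kb (4.18 to 5.997), followed by Ccl19 with 3.74 (2.91 to 4.73), Cxcl16 with 1.71 (1.41 to 2.06) and Ccl5 with 1.22. There the step from Ccl19 to Cxcl16 was the single one without overlap, so that Cxcl13 and Ccl19 stood above the remaining 8 and their own order was not resolved.

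As a share of all counts of the 10 ligands, the lymphoid members made up 8.53% (4.83 to 14.6) in control-F2 and 46.9% (42.2 to 51.7) in AE-F2 islets, with Wilson intervals. Cxcl13 alone went from 3.88% (1.67 to 8.75) to 29.2% (25.0 to 33.7), and Ccl19 from 4.65% to 16.4%. Cxcl16 went from 61.2% (52.6 to 69.2) to 26.1% (22.1 to 30.5), although its level in CPM was nearly equal. The share of Cxcl2 went from 13.2% (8.39 to 20.1) to 2.13% (1.13 to 4.003), the share of Cxcl9 from 0.775% to 8.77%, and the share of Cxcl10 was 7.75% and 6.64%. These shares are not corrected for transcript length. By counts, Cxcl16 held the largest share in control-F2, and Cxcl13 and Cxcl16 the largest shares in AE-F2 islets. Per kilobase, as given above, Ccl19 stood above Cxcl16 in the AE-F2 library. The shares describe ligands that were chosen on this contrast.

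**Figure D3:**
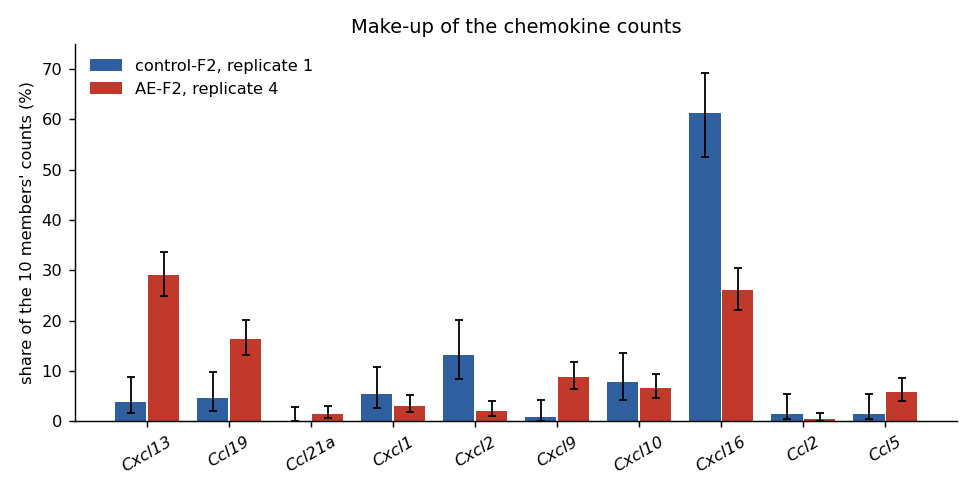
Share of each ligand in the summed counts of the 10 ligands, in percent, for control-F2 (129 counts) and AE-F2 (422 counts). Cxcl16 holds 61.2% of the control-F2 counts, and Cxcl13 (29.2%) and Cxcl16 (26.1%) hold the largest shares of the AE-F2 counts.

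The other chemokine ligands were compared through a list of 31 genes, of which 29 were in the files and 10 had a mean of at least 10 counts. Of these 10, 2 were higher, 2 were lower and the median log2 ratio was 0.06, against 3.18% higher and 0.653% lower over all genes and 13.1% and 2.27% among those with a mean under 100 counts. The most abundant were Cx3cl1, a membrane-tethered ligand of CX3CR1, and Ccl28, a mucosal ligand, and neither reached a 2-fold difference. Cx3cl1 had 420 and 600 counts, a ratio of 1.10 (0.965 to 1.24), and Ccl28 had 374 and 487 counts, a ratio of 0.998. Cxcl12, the stromal ligand of CXCR4, was higher in the AE-F2 library, with 38 and 149 counts and a ratio of 3.01 (2.09 to 4.41), as was Ccl9 with 4 and 19 counts (3.64, 1.21 to 14.7). Ccl3 and Ccl4, macrophage inflammatory proteins, lay on the side of Cxcl2. Ccl3 had 25 and 14 counts, a ratio of 0.429 (0.206 to 0.858), and Ccl4 had 22 and 9 counts, a ratio of 0.314 (0.127 to 0.709). Ccl9 had under 10 counts in control-F2 and Ccl4 under 10 in AE-F2 islets, so each reached the minimum mean through the other library. Over the 39 chemokine ligands in the files, members included, 17 had more than 3 counts in control-F2, 22 in the deeper AE-F2 library, and 11 were at 0 in both.

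The receptors of the members were sparse in control-F2 islets, while those of the lymphoid ligands and of Cxcl9 and Cxcl10 were higher in the AE-F2 library. Cxcr5, the CXCL13 receptor of B cells, had 0 and 54 counts, which is at least 13.8-fold higher with the same floor of 3 counts. Ccr7, the receptor for CCL19 and CCL21, had 1 and 40 counts, a ratio of 30.7 (5.20 to 1241), and Cxcr3, the receptor for CXCL9 and CXCL10, had 1 and 20 counts, a ratio of 15.3 (2.45 to 635). These receptors were thus at or below 1 count in the control-F2 library, as Cxcl9 was. Ccr2, the receptor for CCL2, had 21 and 38 counts, a ratio of 1.39 (0.794 to 2.49). Cxcr2, the receptor for CXCL1 and CXCL2, had 0 and 2 counts and Cxcr6, the receptor for CXCL16, had 1 and 2 counts, so neither receptor was measurable at this depth. Of 23 receptors in the list, 10 reached a mean of 10 counts, 3 were higher (Cxcr5, Ccr7 and Cxcr3), 0 were lower, and the median log2 ratio was 0.54. These 3 had at most 1 count in control-F2 and reached the minimum through the AE-F2 library alone, so their count is no support for a difference. The most abundant receptors differed less, with 133 and 191 counts for Ccrl2 (ratio 1.10), 80 and 117 for Cx3cr1 (1.12), 60 and 110 for Cxcr4 (1.41, 1.017 to 1.958) and 61 and 60 for the decoy receptor Ackr3 (0.754, 0.519 to 1.10). Over all 62 chemokine ligands and receptors in the files, 28 reached a mean of 10 counts, of which 10 were higher and 3 lower, including the 5 higher and 1 lower of the members, which were chosen on this contrast. Over all genes 3.18% were higher and 0.653% lower, and among those with a mean under 100 counts 13.1% and 2.27%.

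**Figure D4:**
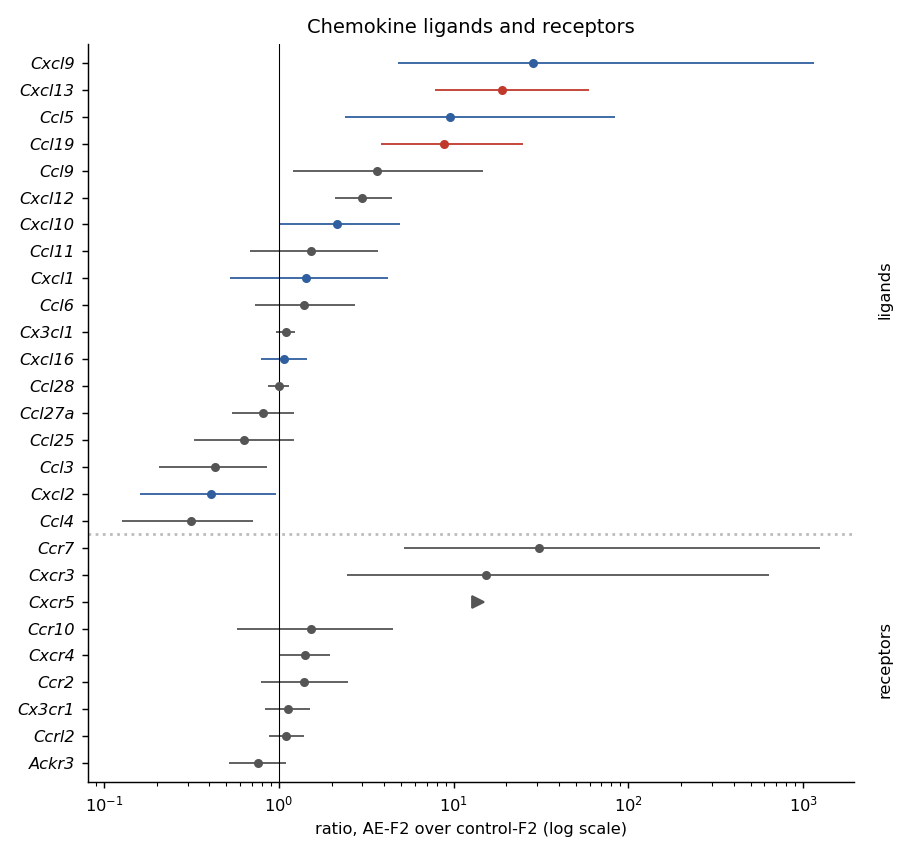
Ratio of AE-F2 over control-F2 on a log scale for chemokine ligands (above) and receptors (below) with a mean of at least 10 counts, with 95% counting intervals as bars. Lymphoid members are red, inflammatory members blue and all other genes grey, the arrowhead marks the lower bound of Cxcr5 (13.8), and Cxcl9, Cxcl13, Ccl5 and Ccl19 stand highest among the ligands as Ccr7 (30.7), Cxcr3 (15.3) and Cxcr5 do among the receptors.

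Genes of the lymphotoxin and NF-kB pathway, through which lymphoid chemokines are induced, were listed next. Of 25 genes, 19 reached a mean of 10 counts, 3 were higher, 0 were lower and the median log2 ratio was -0.00345. Over all genes 3.18% were higher, and 13.1% among those with a mean under 100 counts. Of the 3 higher genes of the list, Ltb reached the minimum through the AE-F2 library alone. Ltb, the lymphotoxin beta subunit made by lymphocytes, had 1 and 34 counts, a ratio of 26.1 (4.37 to 1059), while Ltbr, its receptor on stromal cells, had 400 and 487 counts, a ratio of 0.933 (0.816 to 1.07). Vcam1, the adhesion molecule of activated stroma and endothelium, had 13 and 119 counts (7.02, 3.95 to 13.6), and the tumour necrosis factor receptor Tnfrsf1b had 26 and 80 (2.36, 1.499 to 3.83). The most abundant signalling genes had ratios of 0.998 for Nfkb1, 1.03 for Traf3 and 1.05 for Tnfrsf1a, and Nfkb2 and Relb of the lymphotoxin branch had 1.09 (0.871 to 1.35) and 1.15 (0.793 to 1.68). Other signalling genes had intervals below 1 without reaching 2-fold: the NF-kB inhibitors Nfkbia, at 0.725 (0.648 to 0.811), and Tnfaip3, at 0.742 (0.602 to 0.915), the kinase Map3k14, at 0.808 (0.670 to 0.974), and the subunit Rela, at 0.864 (0.775 to 0.962). The cytokine gene Tnf had 16 counts in each library. Il1b, an inducer of Cxcl1 and Cxcl2, had 16 and 34 counts, a ratio of 1.63 (0.875 to 3.16), and Il1r1, its receptor, had 10325 and 16634 counts, a ratio of 1.24.

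Of 20 genes of the interferon gamma pathway, which induces Cxcl9 and Cxcl10, 19 reached a mean of 10 counts, 2 were higher, 0 were lower and the median log2 ratio was 0.21, against 3.18% higher over all genes and 13.1% higher among those with a mean under 100 counts. Ifng itself had 0 and 1 counts. The higher genes were Ciita, the regulator of MHC class II genes, with 8 and 81 counts (7.76, 3.76 to 18.6), and Irf8, a transcription factor of B cells and myeloid cells, with 34 and 153 counts (3.45, 2.37 to 5.16). Ciita had under 10 counts in control-F2 and reached the minimum mean through the AE-F2 library. B cells are one of the cell types that make Ciita and Irf8, and the source of these transcripts was not tested. Gbp2, a guanylate-binding protein, had 44 and 109 counts (1.90, 1.33 to 2.76), and the immunoproteasome subunit Psmb9 had 69 and 130 (1.44, 1.07 to 1.96). The transcription factor Irf1 had a ratio of 1.10, and the kinases Jak1 and Jak2 had ratios of 0.998 and 1.18.

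Markers of B cells and T cells were higher in the AE-F2 library, as Cxcl13 and Ccl19 were. The 8 B-cell markers summed to 191 and 920 counts (11.7 and 43.2 CPM), a ratio of 3.69 (3.16 to 4.34), and 6 of the 7 that reached the minimum mean stood higher, each of them with at most 3 counts in control-F2, so that they reached it through the AE-F2 library alone. Over all genes 3.18% stood higher, and 13.1% among those with a mean under 100 counts. In the control-F2 library 7 of the 8 had at most 3 counts and Cd79a held 178 of the 191, and without it the sum went from 13 to 529 counts, a ratio of 31.2 (18.1 to 59.0). In the AE-F2 library Ms4a1 had 150, Cd22 had 108, Cd79b had 94 and Pax5 had 85 counts. The 8 T-cell markers summed to 19 and 200 counts (1.17 and 9.40 CPM), a ratio of 8.07 (5.03 to 13.7), with Lck at 7 and 62, Cd2 at 4 and 47 and Cd4 at 1 and 38 counts. Cd8a of the same list had 5 and 11 counts, a ratio of 1.69 with an interval (0.540 to 6.19) that includes 1. The defining T-cell genes Cd3d, Cd3e and Cd3g, the B-cell kinase Blk and the dendritic-cell receptor Xcr1 were at 0 in control-F2, with 5, 10, 10, 16 and 7 counts in AE-F2 islets. The 6 dendritic-cell markers, Ccr7 among them, summed to 262 and 478 counts (1.40, 1.20 to 1.63), and the 7 macrophage and monocyte markers to 1033 and 1693 (1.26, 1.16 to 1.36), of which Lyz2 alone was higher, with 112 and 571 counts. Without Lyz2 the macrophage sum was 921 and 1122 counts, a ratio of 0.934 (0.855 to 1.02), so that its direction rested on this gene. All 5 neutrophil markers were at 0 in both libraries. The part of lymphocyte and myeloid RNA in the ligand levels was not tested, and with 1 library per group analysed the library and the treatment cannot be told apart.

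Of 8 markers of lymph-node stroma, a main source of the lymphoid ligands, 1 reached a mean of 10 counts (Ltbr). Glycam1, Chst4, Ccl21b and Tnfsf11 were at 0 in both libraries, Madcam1 had 0 and 1 counts, Pdpn had 4 and 6, and Bst1 had 3 and 12, a ratio of 3.07 (0.828 to 16.9). The sum of 407 and 506 counts, a ratio of 0.953 (0.835 to 1.09), came almost wholly from Ltbr, which is not restricted to these cells. The follicular dendritic cell markers summed to 3021 and 4904 counts, a ratio of 1.24 (1.19 to 1.30), most of it from Clu with 2495 and 3791 counts (1.16). Of this list Cr2, the complement receptor that B cells also carry, had 0 and 41 counts, at least 10.5-fold higher, while Mfge8 had a ratio of 1.56 and Fcgr2b of 1.59 (0.995 to 2.59). The 5 fibroblast markers summed to 717 and 1914 counts, a ratio of 2.05 (1.88 to 2.23), with Col1a1 at 102 and 313, Dcn at 95 and 254 and Pdgfra at 10 and 43. Endothelial markers had a ratio of 0.957, duct markers of 1.01 and acinar markers of 0.743 (0.728 to 0.758). Alpha-cell markers had a ratio of 1.35, and beta-cell and delta-cell markers had ratios of 0.986 and 0.994. Beside the higher Cxcl13 and Ccl19, the AE-F2 library held more B-cell, T-cell and fibroblast transcripts, fewer acinar transcripts and nearly equal beta-cell and delta-cell sums, and the part of these cells in the ligand levels was not tested.

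**Figure D5:**
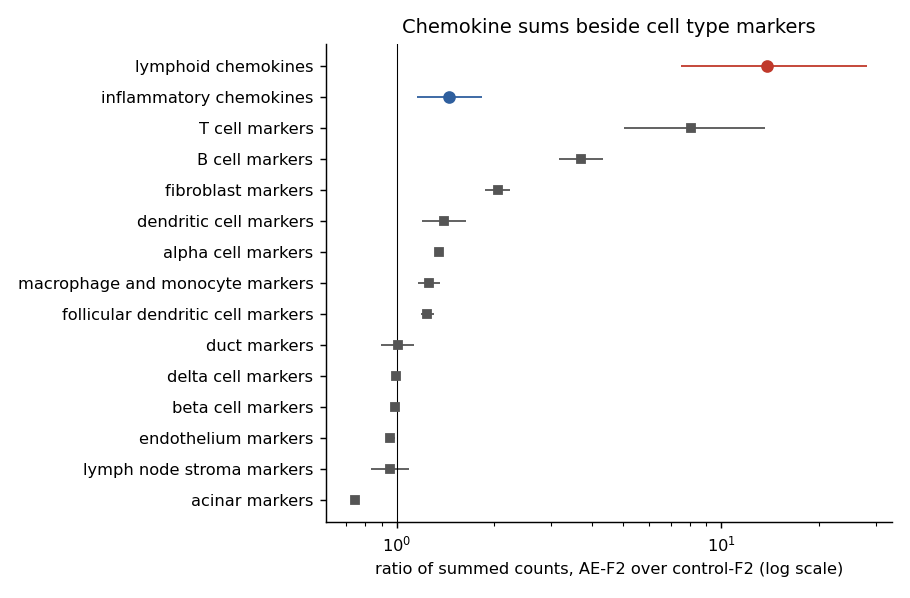
Ratio of the AE-F2 to the control-F2 library for the summed counts of each cell-type marker list and of the lymphoid and inflammatory ligands, on a log scale with 95% intervals for counting error. The lymphoid ligands (13.8), the T-cell markers (8.07), the B-cell markers (3.69) and the fibroblast markers (2.05) lie highest, the B-cell sum depends on Cd79a (31.2 without it), and the endothelial, duct, beta-cell and delta-cell sums lie close to 1.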

How the data were processed

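Islet RNA was sequenced by the authors, and each deposited file used here holds estimated counts per gene (Ensembl identifier), not normalized. The submitters' processing notes name Bowtie2, RSEM and DESeq2 with no roles or versions, and the study's methods name HISAT2 for alignment; genome build and annotation are not given in the sources used here. Of all values, 8.56% and 9.28% were not whole, and all were rounded to whole numbers. Symbols came from GENCODE M21 for 21806 of 21899 identifiers. Scaling used edgeR 4.0.16 (R 4.3.3) TMM factors, and intervals exact binomial, exact Poisson or Wilson 95% limits (scipy 1.17.1, Python 3.11.15). The AE-F2 library was deeper, and 3 counts correspond to 0.184 CPM in the control-F2 and 0.141 CPM in the AE-F2 library. With only 1 library per group analysed here, no test was run. The members and lists were chosen with earlier results of these data known. All members and receptors of theirs were named, and from each other list genes among the 4 most abundant or the 4 with the largest absolute log2 ratio. Ltbr, Ifng, Tnf, Nfkb2, Relb, Rela, Nfkbia, Tnfaip3, Map3k14, Bst1, Cd3d, Cd3e, Cd3g, Cd8a, Blk, Xcr1, Pdpn, Madcam1, Glycam1, Chst4, Ccl21b and Tnfsf11 were named after their values were seen. Some listed genes are counted but not reported here by name. Exon lengths are from GENCODE M21, and promoter windows are RefSeq sequence of GRCm38.p6. The steps were tested on simulated data. Alternatives were DESeq2 1.42.0 size factors, library totals, thinning, another pseudocount, filter and fold, and unrounded counts.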

Additional observations from a re-analysis of the deposited data

How the results depend on the processing

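No paired analysis was possible because each group had 1 library and the 2 libraries carry different replicate numbers, and no replicate could be left out for the same reason. The lymphoid sum kept its direction under each alternative, with ratios from 9.58 (without Cxcl13) to 14.02 (AE-F2 counts thinned to the control-F2 total). The inflammatory sum moved outside its counting interval without Cxcl16, to 2.24. All 48 alternative values of the 8 members stayed within their counting intervals and 0 reversed. Of these, Cxcl10 fell under 2-fold after thinning (log2 ratio 0.97) and with 5 counts added (0.85), and Cxcl2 with 5 counts added (-0.93). With 5 counts added the log2 ratio of Cxcl9 shrank from 4.33 to 2.615, of Ccl5 from 3.01 to 1.89 and of Cxcl13 from 4.12 to 3.40. Cxcl13 then stood above Cxcl9. In alternatives chosen after seeing the data, the B-cell marker sum moved from 3.69 to 31.2 without Cd79a, and the macrophage and monocyte sum turned from 1.26 to 0.934 without Lyz2. The number of genes past a limit depended on the limit: genes higher in the AE-F2 library numbered 434, but 1218 with a minimum mean of 1 count, 82 with a minimum of 50 and 846 at 1.5-fold, and genes lower numbered 89, but 423, 23 and 294, and 46 with 5 counts added. Of chemokine ligands and receptors, 10 were higher, but 22 with a minimum of 1 count and 2 with a minimum of 50, and 3 were lower, but 1 with 5 counts added and 0 with a minimum of 50. Low counts of the control-F2 library widen the members' intervals, and the spread between libraries of a group was not measured.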

Other observations

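Cxcl2, Ccl3 and Ccl4, ligands that activated macrophages release early, all had lower counts in the AE-F2 library, a group chosen after the values were seen. They summed to 64 and 32 counts (control-F2 first), a ratio of 0.383 (0.243 to 0.595), and Ccl3 and Ccl4 alone to 47 and 23, a ratio of 0.375 (0.217 to 0.630). Because this group was picked for its low values, these intervals are no support for a difference. Ligands and cytokines not picked had ratios of 1.42 (0.528 to 4.21) for Cxcl1 and 3.64 (1.21 to 14.7) for Ccl9. The ratios were 1.63 (0.875 to 3.16) for Il1b and 0.767 (0.359 to 1.64) for Tnf. The 7 macrophage and monocyte markers had a ratio of 1.26 (1.16 to 1.36) for their sum and of 0.934 (0.855 to 1.02) without Lyz2, with single ratios from 0.838 for C1qa to 3.91 for Lyz2.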
